A study of Mus musculus with 2 samples.

Results

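Inflammatory monocytes were described here as the cells of small B16F10 tumors that carried RNA of the monocyte genes Ly6c2, Chil3, Hp, Ifitm6 and Plac8 and little RNA of the complement C1q genes. Members were selected on their own counts. A cell had 200 to 5000 detected genes, at most 7.5% mitochondrial UMIs (unique molecular identifiers, one for each captured transcript) and less than 0.5% of its UMIs from the pigment genes Pmel, Dct, Mlana and Tyrp1. It also had a UMI of at least 2 of the 5 monocyte genes and of at most 1 of C1qa, C1qb and C1qc, no UMI of Arg1, and UMIs of at most 3 of the 6 interferon genes Ifit1, Rsad2, Ifit3, Isg15, Cxcl10 and Slfn4. This left 496 of 7418 kept cells, of which 306 of 3861 came from the Atf4 WT/WT library and 190 of 3557 from the Atf4 Δ/Δ library. The levels of the 5 monocyte genes and of C1q in these cells therefore describe the selection. C1q-positive macrophages, taken under the same limits with at least 2 C1q genes and no condition on the monocyte genes, numbered 735 and 548 and served for comparison.

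Droplet-based RNA sequencing was carried out on tumors of B16F10, a melanoma line of C57BL/6 origin, to ask how loss of host Atf4 alters the cells of the tumor. Atf4 encodes a transcription factor of the integrated stress response that drives amino acid synthesis and transport. Each genotype contributed 1 library, made from a pool of 2 tumors. Hosts of the Atf4 Δ/Δ library were C57BL/6 mice with loxP sites around exons of Atf4 and a tamoxifen-inducible Cre at Rosa26, and hosts of the Atf4 WT/WT library carried the same Cre with wild-type Atf4. Both received tamoxifen by gavage, both pools were labelled as male and female, and the mice were 11 weeks old. The Cre is active in all host tissues, so the deletion was not limited to monocytes, while the injected melanoma cells kept their own Atf4. With 1 library per genotype no statistical test of a genotype difference could be made, and no p-value is given. The intervals below are exact 95% intervals that cover counting error only and hold no variation between mice.

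Classical monocytes leave the bone marrow when chemokines such as Ccl2 and Ccl7 act on their receptor Ccr2, circulate with high surface Ly6C and enter inflamed tissue and tumors. There they can mature into macrophages, losing Ly6c2 and gaining lysosomal, scavenger and complement genes. Ly6c2 encodes the surface protein Ly6C, Chil3 the chitinase-like protein Ym1, Hp the hemoglobin scavenger haptoglobin, Ifitm6 an interferon-induced transmembrane protein and Plac8 a small cysteine-rich protein of immune cells.

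The promoters of Ly6c2 and Chil3 are shown because these genes give the population its name and because their levels in the members lay in opposite directions between the hosts. Both are RefSeq windows of 300 bases in build GRCm38.p6, from 250 bases before to 50 bases after the annotated start, printed from 5′ to 3′ on the minus strand of the gene. The Ly6c2 window is chr15:75111922-75112221 and the Chil3 window is chr3:106167515-106167814. Capitals mark GAGGAAGT, a form of the site of the myeloid factor PU.1, searched on both strands.
Ly6c2: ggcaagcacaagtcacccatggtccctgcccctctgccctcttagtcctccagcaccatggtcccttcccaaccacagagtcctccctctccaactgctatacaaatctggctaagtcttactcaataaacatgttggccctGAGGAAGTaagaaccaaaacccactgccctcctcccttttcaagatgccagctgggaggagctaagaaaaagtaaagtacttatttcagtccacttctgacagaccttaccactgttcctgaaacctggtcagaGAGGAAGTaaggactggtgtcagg
Chil3: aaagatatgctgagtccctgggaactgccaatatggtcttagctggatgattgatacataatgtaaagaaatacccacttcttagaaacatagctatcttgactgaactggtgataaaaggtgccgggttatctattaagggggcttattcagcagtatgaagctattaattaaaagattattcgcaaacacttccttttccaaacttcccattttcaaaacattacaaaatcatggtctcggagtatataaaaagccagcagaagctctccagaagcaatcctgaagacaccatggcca
The Ly6c2 window held the PU.1 letters at positions -108 and 26 from the start, and 3.20% of 32851 RefSeq promoter windows of this length held them at least 1 time. The Chil3 window held no match to these letters, to the C/EBP site TTGCNNAA (10.8% of windows), to the interferon-stimulated response element (3.44%) or to the ATF4 site TGATGNAA (3.97%). A match describes letters only. Among the other genes of the selection, Plac8 held a C/EBP match at -12 in its second window and Ifitm6 held none of the 4 motifs. In GENCODE M21 the genes lie at chr15:75108158-75111970 for Ly6c2, chr3:106147554-106167564 for Chil3, chr8:109575128-109579172 for Hp, chr7:141015699-141017924 for Ifitm6 and chr5:100553725-100572245 for Plac8, all protein-coding.

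Monocytes were shallow cells. Their median was 1103.5 UMIs in the Atf4 WT/WT library and 1065.5 in the Atf4 Δ/Δ library, against 2448 and 2350 in macrophages, and their summed counts were 370146 and 280346 UMIs. The libraries themselves held 38417113 and 38290024 UMIs over 6304 and 5474 barcodes. They shared 10 barcodes, none of them a monocyte. A doublet caller (Scrublet) marked 0 and 1 of the monocytes.

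The libraries differed in ways that touched the monocytes. No UMI of a Y-linked gene was found in any Atf4 WT/WT monocyte and Xist was found in 153 of them, whereas the Atf4 Δ/Δ monocytes divided into 23 with Xist, 25 with a Y-linked gene and 142 with neither. The label of mixed sex was therefore visible in the Atf4 Δ/Δ library only, and sex and genotype cannot be told apart for genes that differ between males and females. Hemoglobin RNA was seen in the Atf4 WT/WT monocytes alone, with 627 UMIs of Hbb-bs against 0. Macrophages and pigmented cells differed in the same way. S100a8 and S100a9, the neutrophil calprotectin genes, gave 1 and 0 UMIs in Atf4 WT/WT monocytes against 215 and 169 in Atf4 Δ/Δ monocytes.

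The selection also admitted cells with markers of other lineages. Fibroblast RNA was the main component, and at least 2 of 8 fibroblast or 8 endothelial genes were found in 14 Atf4 WT/WT and 24 Atf4 Δ/Δ members, called fibroblast-marked below. These cells were large, with medians of 2670 and 3508.5 UMIs, and held 9.92% and 32.8% of all UMIs of the members. The fibroblast list summed to 1696 UMIs in Atf4 WT/WT and 4445 UMIs in Atf4 Δ/Δ members, 4582 and 15855 CPM, with all 8 genes seen in both. CPM stands for UMIs scaled to a common total of each cell population in each library. The neutrophil list summed to 31 and 443 UMIs, and S100a9, Retnlg, Mmp9, Ly6g and Ngp were at 0 in Atf4 WT/WT. Dendritic, plasmacytoid, T and NK, and B cell lists summed to at most 138 UMIs in either library. Of 10 plasmacytoid genes 10 were seen in Atf4 WT/WT and 6 in Atf4 Δ/Δ, and of 12 T and NK genes 9 in each. Of 10 dendritic genes 7 and 2 were seen, and of 8 B cell genes 4 and 3. Cd79a, Ms4a1, Trac and Ncr1 were at 0 in both libraries. At least 2 plasmacytoid genes were found in 16 and 4 members. Members with fewer than 2 genes of each of these lists, S100a8 and S100a9 not being counted, were 271 and 159 cells with 307240 and 175144 UMIs and are called lineage-filtered monocytes below. This smaller set was chosen after the values were seen. It still held 7 Atf4 Δ/Δ cells with at least 2 neutrophil genes when S100a8 and S100a9 were counted, and 8 Atf4 WT/WT cells with at least 2 erythroid genes, whose list summed to 1045 UMIs there and to 1 in Atf4 Δ/Δ. In it the fibroblast list summed to 166 and 177 CPM, and the neutrophil list to 101 and 520. The melanoma list, by contrast, had UMIs in 264 of 306 and 150 of 190 members, and the estimated share of UMIs from free melanoma RNA was 11.0% and 9.92%, above the 6.26% and 7.48% in macrophages.

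The members were not uniform in the genes that selected them. Plac8 was found in 268 of 306 Atf4 WT/WT members, Chil3 in 197, Ly6c2 in 180, Hp in 110 and Ifitm6 in 102. In the Atf4 Δ/Δ library Chil3 came first with 148 of 190 members, followed by Plac8 with 140, Hp with 94, Ly6c2 with 78 and Ifitm6 with 57. The exact intervals of Chil3 (64.4%, 58.7 to 69.7, and 77.9%, 71.3 to 83.6) and of Ly6c2 (58.8%, 53.1 to 64.4, and 41.1%, 34.0 to 48.4) did not overlap between the libraries, nor did those of Hp (35.9%, 30.6 to 41.6, and 49.5%, 42.2 to 56.8) and Plac8 (87.6%, 83.4 to 91.1, and 73.7%, 66.8 to 79.8), whereas those of Ifitm6 did. These 5 genes chose the cells, so the shares describe the selection. Chil3 and Ly6c2 together were found in 109 and 64 members. Most cells passed with few of the genes: 142 and 104 members carried exactly 2, 101 and 47 carried 3, 45 and 27 carried 4, and 18 and 12 carried all 5.

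Cells near the limits of the rule looked different from cells well inside it. In the Atf4 WT/WT library Ccr2, the receptor for entry from blood, averaged 393 CPM in members with 2 monocyte genes and 720 in those with 4 or 5, and only 86.3 in cells just outside with 1 gene. The fibroblast list stood at 8897 CPM with 2 genes and at 235 with 4 or 5. In the Atf4 Δ/Δ library Ccr2 was 226 and 556 and the fibroblast list 24400 and 202 in the same classes. Most fibroblast RNA thus lay in members with exactly 2 monocyte genes. On the C1q side, cells with at least 2 monocyte genes that were left out for having 2 or 3 C1q genes numbered 66 and 62, and their macrophage list stood at 12809 and 17266 CPM against 4885 and 5600 in members. Arg1 alone left out 7 and 16 cells, the interferon genes alone left out 4 and 3, and the pigment limit alone left out 15 and 5.

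Monocytes also differed in antigen presentation genes. At least 2 of 10 MHC class II genes were found in 113 of 306 and 58 of 190 members. Among lineage-filtered monocytes those cells had less Ly6c2, 837 against 1307 CPM in Atf4 WT/WT and 548 against 703 in Atf4 Δ/Δ, and less Chil3, 1737 against 2695 and 3701 against 6640. Both genes took part in the selection and the split was made at full depth, so these values are descriptions. Ccr2 had no common direction, with 619 against 508 and 442 against 466.

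**Figure D1:**
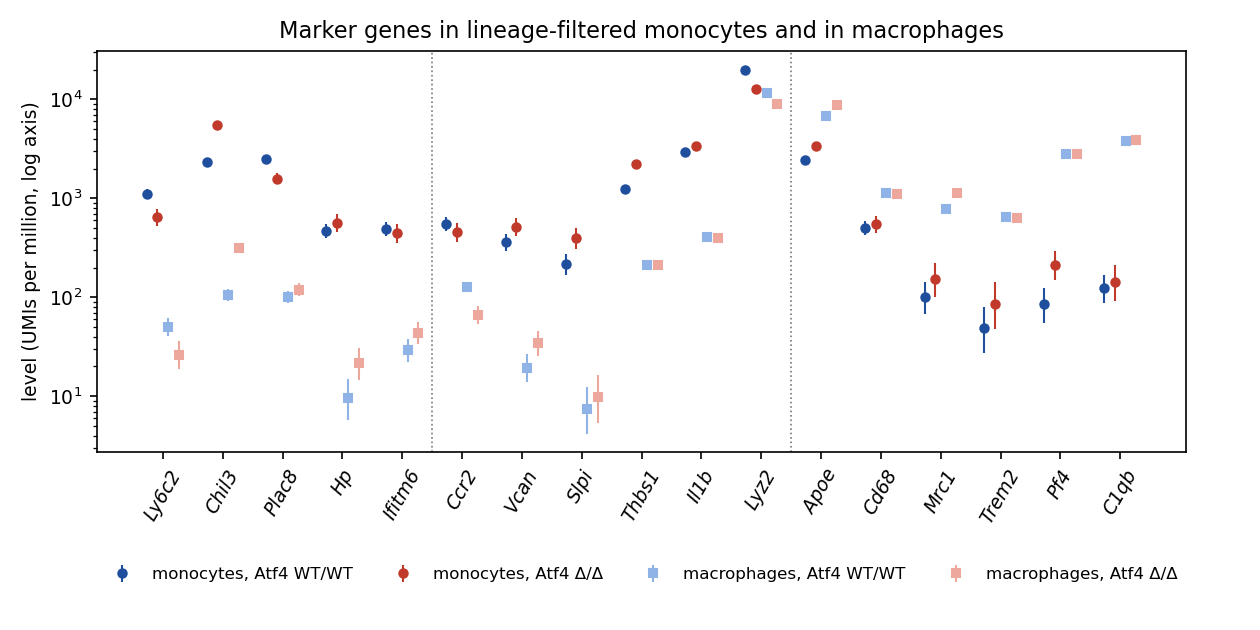
Levels of marker genes in lineage-filtered monocytes (circles) and C1q-positive macrophages (squares) of the Atf4 WT/WT (blue) and the Atf4 Δ/Δ (red) library, in CPM on a log axis, with exact Poisson 95% intervals. Left of the first dotted line are the genes of the selection, between the lines are other monocyte and inflammatory genes, which were higher in monocytes of both libraries, and on the right are macrophage genes, all lower in monocytes of both libraries, C1qb being used by the selection.

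Against C1q-positive macrophages the members had more RNA of classical monocyte and inflammatory genes and less of scavenger and lysosomal genes. The same cells were used for selection and comparison, so all values of this contrast are descriptions. Of 7017 genes with at least 50 UMIs over both cell types, 299 (4.26%) were at least 2-fold higher in monocytes in both libraries and 410 (5.84%) were at least 2-fold lower. From the list of 18 classical monocyte genes, 15 were measured, 9 were past 2-fold higher in both libraries and 1 was past 2-fold lower, with a median log2 ratio of 1.66. The median of all genes was -0.09. The 1 lower gene was F13a1, the coagulation factor XIII A chain, with log2 ratios of -1.07 and -2.04. When cells with other-lineage markers were left out of both cell types, 9 genes were past 2-fold higher and 0 past 2-fold lower. The median was then 1.61.

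Named monocyte genes outside the selection showed large ratios. The proteoglycan gene Vcan stood at 386 and 564 CPM in monocytes and at 19.5 and 34.8 in macrophages of the Atf4 WT/WT and the Atf4 Δ/Δ library, log2 ratios of 4.31 and 4.02. Slpi, an inhibitor of neutrophil elastase, stood at 213 and 296 against 7.49 and 9.73. At 1000 UMIs Vcan had a UMI in 29.6% and 43.5% of monocytes, fibroblast-marked members included, and in 2.03% and 3.18% of macrophages. Other cell types were not compared. Ccr2 was higher by 1.92 and 2.23 on the log2 scale. Il1b, the inflammasome-processed cytokine, reached 2545 and 2212 CPM against 408 and 394. Thbs1, which encodes the matrix protein thrombospondin, reached 1092 and 1573 against 210 and 212. The aspartic protease Napsa, the coagulation factor gene F10 and glutathione reductase Gsr were higher by at least 2.58 on the log2 scale in each library. Among genes named by size, Cxcl12, Rarres2, Serpina3n, Serping1, Dcn and Cxcl5 were also higher in monocytes, but 99.1% to 100% of their UMIs in members came from the fibroblast-marked cells, and C3 had 70.0% there against 7.41% for Slpi and 30.6% for Vcan.

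Macrophage genes ran the other way. Of 24 listed macrophage genes 23 were measured, 17 were past 2-fold lower in monocytes of both libraries and 0 past 2-fold higher, with a median log2 ratio of -2.39. Apoe, the lipid carrier, stood at 2132 and 2379 CPM in monocytes against 6854 and 8772 in macrophages. The mannose receptor Mrc1 stood at 99.96 and 111 against 787 and 1132, and the lipid receptor Trem2 at 48.6 and 53.5 against 652 and 637. By size the leading genes were Ccl8, Folr2, Cbr2, Pf4, Ednrb, Stab1 and Lyve1, genes of resident tissue macrophages for the most part, and Lyve1, the hyaluronan receptor, had no UMI in any member against 262 and 817 UMIs in macrophages. Of 19 lysosomal genes, 10 were past 2-fold lower and 0 past 2-fold higher, with Ctsb at 1213 and 1027 against 5684 and 5449 CPM and Ctsd at 459 and 478 against 3414 and 2642.

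Other groups separated monocytes from macrophages less or in part. Of 6 measured MHC class II genes all 6 were higher in both libraries and 2 past 2-fold, with a median of 0.90, and Cd74, the invariant chain, stood at 3031 and 1955 against 1751 and 1191 CPM. Among 24 cytokine and chemokine genes 4 were past 2-fold higher and 6 past 2-fold lower, so that Il1b was high in monocytes while the monocyte attractants Ccl7, Ccl8 and Ccl12 were higher in macrophages. Mitotic genes were lower in monocytes, 12 of 19 past 2-fold, with a median of -1.49. Of 24 measured interferon-stimulated genes 5 were past 2-fold higher and 0 lower. Lyz2, lysozyme, was the most abundant myeloid gene in the members, at 16999 and 8500 CPM against 11759 and 9090. Over all members its direction against macrophages thus differed between the libraries. In lineage-filtered monocytes Lyz2 was higher than in macrophages in both libraries.

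By host genotype, monocytes were a smaller share of the Atf4 Δ/Δ tumor sample. They made up 14.98% (13.5 to 16.6) of 2043 cells under the pigment limit in Atf4 WT/WT and 10.8% (9.41 to 12.4) of 1755 in Atf4 Δ/Δ, a log2 ratio of -0.47 (-0.74 to -0.20). Of all kept cells they were 7.93% (7.09 to 8.82) and 5.34% (4.63 to 6.13). The rule asks for detected genes and so depends on depth, and each cell was therefore also thinned to 1000 UMIs before it was applied. At that depth 186 of 1746 cells, 10.7% (9.24 to 12.2), and 92 of 1553, 5.92% (4.80 to 7.22), were monocytes, and the log2 ratio was -0.85 (-1.22 to -0.48). The thinning left out 100 of 306 and 81 of 190 members with fewer UMIs, and 390 of 3861 and 348 of 3557 of all kept cells. Lineage-filtered monocytes gave -0.55 (-0.84 to -0.26) at full depth and -0.99 (-1.40 to -0.60) at 1000 UMIs. The difference was thus beyond counting error at both depths. The estimate was farther from 0 at 1000 UMIs, where a larger part of the Atf4 Δ/Δ members was left out. How far this loss moved the estimate was not tested.

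C1q-positive macrophages were also a smaller share of the Atf4 Δ/Δ cells, 31.2% (29.1 to 33.5) against 36.0% (33.9 to 38.1). Relative to monocytes and macrophages together, the monocyte share was 29.4% and 25.7%, and this log2 ratio of -0.19 (-0.46 to 0.07) was within counting error at full depth and -0.46 (-0.83 to -0.09) at 1000 UMIs. The direction did not hold in every subset. At 2000 UMIs only 10 and 14 cells passed, with a log2 ratio of 0.40 (-0.88 to 1.73), and among Xist-bearing cells without Y-linked RNA the ratio was 0.02 over 153 and 23 monocytes. Shares from 1 pool per genotype cannot separate host genotype from the pool.

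**Figure D2:**
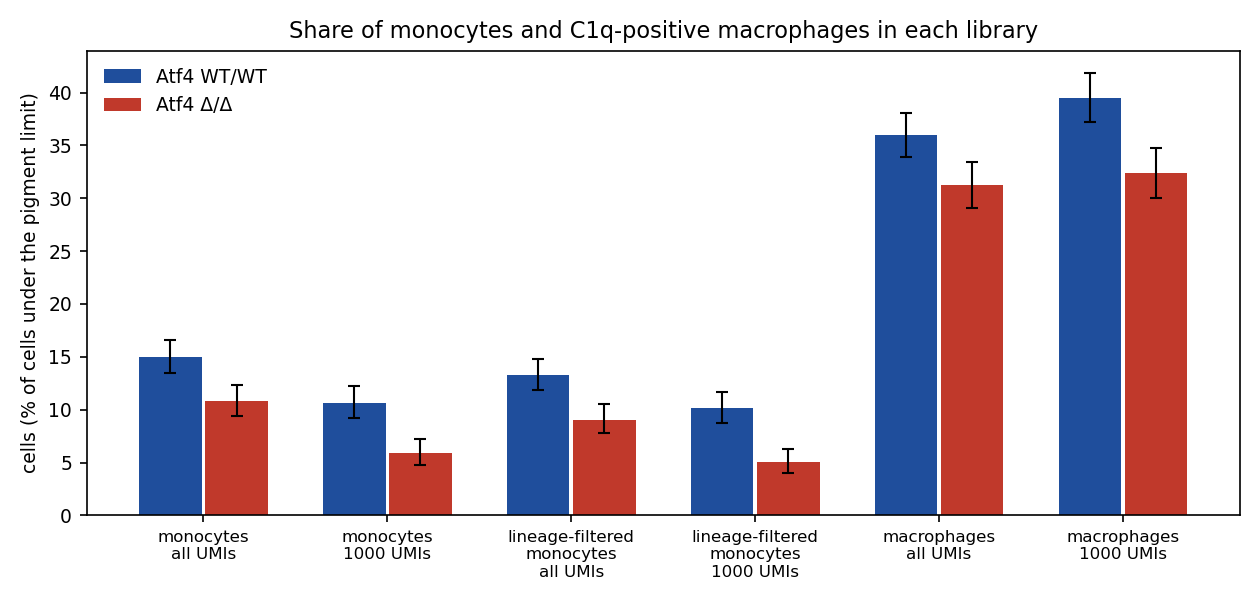
Share of cells under the pigment limit that were monocytes, lineage-filtered monocytes or C1q-positive macrophages, in percent, with all UMIs and after thinning each cell to 1000 UMIs. Bars are the Atf4 WT/WT (blue) and the Atf4 Δ/Δ (red) library, 1 each, and error bars are exact binomial 95% intervals; the Atf4 Δ/Δ bar is the lower one in all 6 pairs.

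Atf4 itself was lower in monocytes of the Atf4 Δ/Δ hosts. The gene (chr15:80255184-80257541) gave 80 UMIs, 216 CPM, in Atf4 WT/WT monocytes and 15 UMIs, 53.5 CPM, in Atf4 Δ/Δ monocytes, a log2 ratio of -2.01 (-2.92 to -1.21). Part of the remaining RNA lay in the fibroblast-marked members, since the lineage-filtered monocytes held 63 and 4 UMIs, 205 and 22.8 CPM, and a ratio of -3.17 (-5.09 to -1.74). At 1000 UMIs, Atf4 was detected in 17.7% (12.5 to 24.0) of Atf4 WT/WT and 3.26% (0.678 to 9.23) of Atf4 Δ/Δ monocytes, other-lineage members included. In macrophages the level was 183 and 48.0 CPM, a ratio of -1.93. Pigmented cells, which carry the wild-type gene in both libraries, had 225 and 201 CPM. Counts do not tell which exons the reads came from, so UMIs from the undeleted part of the transcript or from free melanoma RNA are included.

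**Figure D3:**
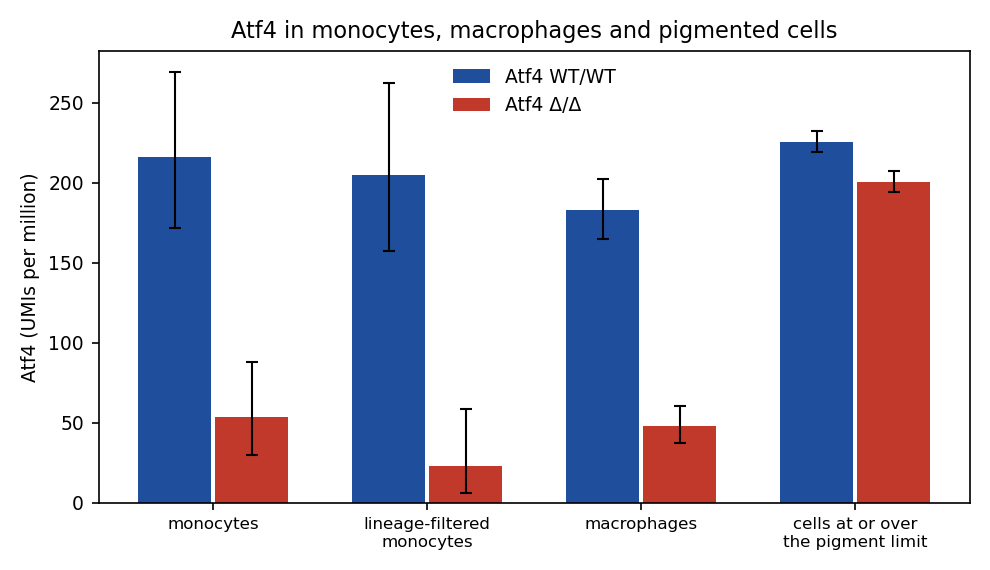
Atf4 level in CPM, with exact Poisson 95% intervals, in monocytes, lineage-filtered monocytes, C1q-positive macrophages and cells at or over the pigment limit of the Atf4 WT/WT (blue) and the Atf4 Δ/Δ (red) library. The red bars stand at 53.5, 22.8 and 48.0 CPM in the host populations and at 201 in the pigmented cells.

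Across genes, 1873 had at least 50 UMIs over the monocytes of both libraries, and 108 (5.77%) were at least 2-fold higher and 89 (4.75%) at least 2-fold lower in Atf4 Δ/Δ. In the lineage-filtered monocytes 1378 genes were measured, with 22 (1.6%) higher and 33 (2.39%) lower. Of the 1873 genes 835 lay above 0 and 1038 below, with a median log2 ratio of -0.06. Of the 1378 genes 644 lay above 0 and 734 below, with a median of -0.03. Many of the largest differences followed the other-lineage RNA. Higher by size in all members were S100a8, S100a9, Cxcl5, Meg3, Gpx3, Lox, Rarres2, Fstl1, Serpina3n and Fbn1, of which Cxcl5, Meg3, Lox, Rarres2, Fstl1, Serpina3n and Fbn1 had 98.5% to 100% of their UMIs in the fibroblast-marked members and Gpx3 had 45.2%. Lower by size were the hemoglobin genes Hbb-bs, Hba-a1, Hba-a2 and Hbb-bt, Xist, Fabp4, Cd83, Ifi27l2a, Ly86 and Dennd4a. Fabp4, a fatty acid carrier of adipocytes, endothelium and macrophages, had 66.4% of its UMIs in fibroblast-marked members. The genes below are therefore given for all members and for lineage-filtered monocytes.

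The genes of the selection lay on different sides of 0, which is a description since they chose the cells. Chil3 stood at 1967 CPM in Atf4 WT/WT and 3660 in Atf4 Δ/Δ members, a log2 ratio of 0.90 (0.76 to 1.03), and 1.26 (1.12 to 1.40) in lineage-filtered monocytes. Ly6c2 stood at 1110 and 428, a ratio of -1.38 (-1.68 to -1.08), and -0.79 (-1.11 to -0.48). Plac8 was lower by -0.86 (-1.04 to -0.69) and -0.65 (-0.86 to -0.45) on the same scale. Chil3 and Ly6c2 kept their side of 0 when each was left out of its own selection: cells chosen by at least 2 of the other 4 genes gave 0.66 (0.48 to 0.83) for Chil3, and in the lineage-filtered set 1.23 for Chil3 and -0.81 (-1.18 to -0.46) for Ly6c2. Hp was at 454 and 567 CPM and Ifitm6 at 419 and 307, and in lineage-filtered monocytes both ratios, 0.27 and -0.13, were within counting error. C1q-positive macrophages, which were not chosen by these genes, had Chil3 at 105 and 318 and Ly6c2 at 50.5 and 26.4 CPM.

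The wider classical monocyte list did not share a direction. Of 15 measured genes 1 was past 2-fold higher and 2 were past 2-fold lower, the median log2 ratio was -0.08, and the summed list gave 0.15 (0.08 to 0.21), so median and sum differed in sign. Among lineage-filtered monocytes 0 of 14 genes passed 2-fold. There the matrix gene Fn1 was higher by 0.75 (0.48 to 1.03), Thbs1 by 0.86 (0.65 to 1.07) and Vcan by 0.52 (0.11 to 0.94). The membrane protein gene Ms4a4c was at -0.75 (-1.14 to -0.37), or -0.37 (-0.88 to 0.13) when cells were also thinned to 1000 UMIs, the leukocyte-specific gene Lst1 at -0.86 (-1.33 to -0.40) and Ms4a6c at -0.37 (-0.67 to -0.07). Ccr2 was 481 and 314 CPM in all members, a ratio of -0.62 (-1.0007 to -0.24), and -0.28 (-0.68 to 0.12) in the lineage-filtered set. Of 11 measured migration receptors 0 passed 2-fold in that set, with the integrin chain Itgal at -0.57 (-1.53 to 0.32) and the hyaluronan receptor Cd44 at 0.47 (0.14 to 0.80).

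Several chemokine genes stood higher in Atf4 Δ/Δ monocytes. In lineage-filtered monocytes 16 cytokine and chemokine genes were measured and 4 passed 2-fold higher, with 0 lower: Ccl6 (log2 ratio 1.17, 0.98 to 1.35), Ccl7 (1.17, 0.81 to 1.53), Ccl12 (1.60, 0.91 to 2.31) and Pf4 (1.32, 0.56 to 2.10). The median of the 16 was 0.07 against -0.03 for all genes, so the list as a group was not displaced. Ccl7 and Ccl12 attract Ccr2-bearing monocytes, as does Ccl2, which stood at 959 and 1705 CPM in all members, a ratio of 0.83 (0.63 to 1.03), and at 0.78 (0.55 to 1.01) in the lineage-filtered set. At 1000 UMIs Ccl7 was detected in 14.5% (9.79 to 20.4) and 33.7% (24.2 to 44.3) of monocytes and Ccl2 in 35.5% (28.6 to 42.8) and 55.4% (44.7 to 65.8). These shares include members with other-lineage markers: of 186 and 92 cells, 177 and 79 were lineage-filtered. Macrophages gave 0.02 for Ccl7, -0.31 for Ccl2, 0.65 for Ccl6 and 1.53 for Ccl12. The eosinophil attractant Ccl24 was named by size, with 43 and 67 UMIs, all outside fibroblast-marked members, and a ratio of 1.45 (0.88 to 2.04) in the lineage-filtered set against 1.06 in macrophages. Il1b was at 0.22 (0.07 to 0.37), Tnf at -0.06 (-0.70 to 0.56) and the neutrophil attractant Cxcl2 at -0.22 (-0.37 to -0.07).

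Further genes were higher by size in lineage-filtered Atf4 Δ/Δ monocytes. Rgcc, a cell cycle and complement response gene, gave 37 and 72 UMIs, a ratio of 1.77 (1.18 to 2.38). At 1000 UMIs it was detected in 9.68% (5.84 to 14.9) and 29.3% (20.3 to 39.8) of monocytes, other-lineage members included. In macrophages the shares were 6.09% and 4.57%. Hmox1, heme oxygenase, gave 56 and 101 UMIs and a ratio of 1.66 (1.18 to 2.16), against 0.22 in macrophages. The cathepsin gene Ctsl gave 1.06 (0.76 to 1.35), the endocytic recycling gene Ehd1 1.15, the heparan sulfate proteoglycan Sdc4 0.98 and the hypoxia-inducible lipid droplet gene Hilpda 0.94. Ctsl was the 1 lysosomal gene past 2-fold: of 17 measured, 11 were lower and the median was -0.11, and over all members 13 were lower with a median of -0.36. Of all genes 734 of 1378 and 1038 of 1873 were lower in these sets. Of 9 antioxidant and iron genes 1, Hmox1, was past 2-fold higher, and the metallothionein Mt1 was at 0.90 (0.59 to 1.22). Metallothioneins were also higher in Atf4 Δ/Δ macrophages, where Mt1 was at 0.79.

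**Figure D4:**
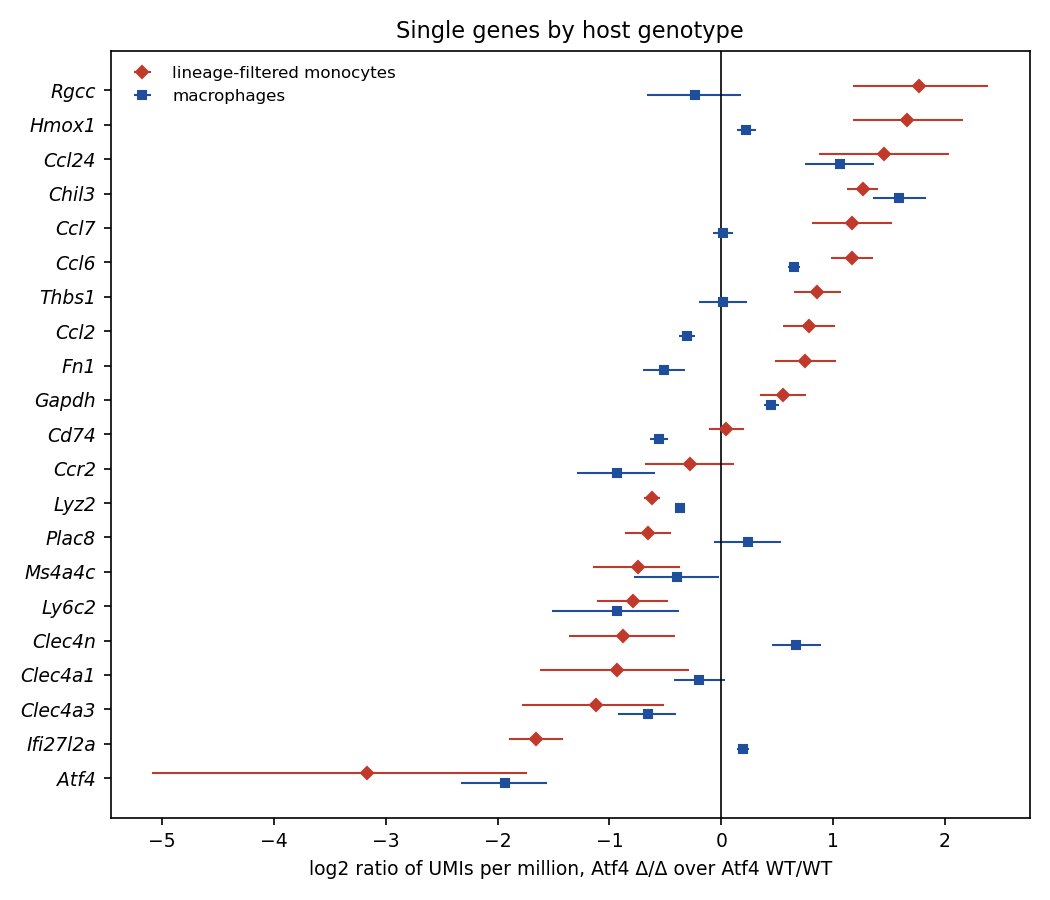
Log2 ratio of CPM, Atf4 Δ/Δ over Atf4 WT/WT, of single genes in lineage-filtered monocytes (red diamonds) and C1q-positive macrophages (blue squares), with exact conditional 95% intervals for counting error. Rgcc, Hmox1 and Ccl7 lie above 1 in monocytes and at -0.24, 0.22 and 0.02 in macrophages, and Ifi27l2a lies at -1.65 in monocytes and 0.20 in macrophages; differences between the cell types were not tested.

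Interferon-stimulated genes were the list with the lowest median in Atf4 Δ/Δ monocytes among those with at least 10 measured genes. Of 12 measured genes 11 were below 0, 5 were past 2-fold lower and 0 past 2-fold higher, with a median of -0.75. Of all 1873 genes 1038 were below 0 and 89 (4.75%) past 2-fold lower, with a median of -0.06. Lineage-filtered monocytes gave 9 of 11 below 0, 3 past 2-fold lower and a median of -0.53, and the list sum gave -0.43 (-0.52 to -0.35). The size of the median depended on the cells and the depth. With at least 3 monocyte genes it was -0.27 over 8 genes, and with Xist -1.45 over 7. At 1000 UMIs it was -0.68 over 7 genes in all members. In lineage-filtered monocytes at 1000 UMIs it was -0.36 over 6 genes, 2 above 0 and 4 below. Ifi27l2a had the lowest ratio of the 12, with 972 UMIs, 2626 CPM, in Atf4 WT/WT and 205 UMIs, 731 CPM, in Atf4 Δ/Δ members, a ratio of -1.84 (-2.07 to -1.63). At 1000 UMIs the gene was detected in 80.6% (74.2 to 86.1) and 43.5% (33.2 to 54.2) of monocytes. Trim30a, at -1.41 (-2.45 to -0.50), and Irf7, the interferon-amplifying factor, at -1.28 (-2.16 to -0.48), were the others past 2-fold in the lineage-filtered set. Ly6e was at -0.66 (-0.95 to -0.37), while the restriction factors Ifitm2 and Ifitm3 were at 0.02 (-0.17 to 0.20) and -0.06 (-0.19 to 0.08). The rule itself capped 6 interferon genes, of which Cxcl10 gave 55 and 8 UMIs. Over all members the interferon-stimulated list summed to 4396 and 2397 UMIs, of which Ifi27l2a gave 972 and 205. In macrophages the same list had a median of 0.00, and its sum gave 0.20 (0.16 to 0.23).

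Receptor and host defense genes were mixed. The C-type lectin receptors Clec4a3, Clec4a1 and Clec4n were at -1.12 (-1.78 to -0.51), -0.93 (-1.62 to -0.29) and -0.88 (-1.36 to -0.41) in lineage-filtered monocytes. At 1000 UMIs Clec4a3 was at -0.13 (-1.004 to 0.70) in that set and -0.05 (-0.88 to 0.73) in all members, within counting error. The Fc receptor genes Fcgr3 and Fcgr1 were at 0.69 (0.26 to 1.12) and 0.47 (0.03 to 0.90). Of the 13 receptor genes 1, Clec4a3, passed 2-fold lower at full depth and 0 higher, with a median of -0.06. Cybb, the catalytic subunit of the phagocyte oxidase, was at -0.61 (-0.98 to -0.25) and Lyz2 at -0.62 (-0.69 to -0.55), against -0.37 for Lyz2 in macrophages. Cd83, a maturation marker of antigen-presenting cells, gave 88 and 16 UMIs in all members and 83 and 16 in the lineage-filtered set, ratios of -2.06 (-2.93 to -1.28) and -1.56 (-2.44 to -0.78). Dennd4a, a Rab regulator, was at -0.99 (-1.72 to -0.30) in that set, and Napsa at -0.65 (-1.14 to -0.17). Of 12 myeloid transcription factors 7 were above 0 and 5 below, 1 was past 2-fold in each direction and the median was 0.10, with Irf5 at -1.19 (-2.24 to -0.25), Spi1, which encodes PU.1, at -0.51 (-0.95 to -0.09) and Klf4 at 0.72 (0.24 to 1.19).

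MHC class II genes depended on which cells were counted. Over all members all 6 genes were lower in Atf4 Δ/Δ, with a median of -0.62 and 1 gene, H2-DMb1, past 2-fold, and Cd74 stood at 3031 and 1955 CPM. Over lineage-filtered monocytes 3 were higher and 3 lower, the median was -0.01, and Cd74 was at 0.04 (-0.11 to 0.20). Removal of the fibroblast- and endothelial-marked members alone gave a median of -0.20, and removal of members with 2 dendritic, lymphoid or neutrophil genes alone, S100a8 and S100a9 again not counted, gave -0.44. The plasmacytoid dendritic list, whose cells are rich in class II, summed to 138 and 46 UMIs in all members and to 26 and 17 in the lineage-filtered set. In macrophages all 6 genes were lower, with a median of -0.54.

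Most glycolysis and hypoxia genes were higher in Atf4 Δ/Δ monocytes, by a small factor at the median. Their log2 ratios ran from -0.10 to 1.28 in all members. Of 17 measured genes 16 were above 0, 1 was past 2-fold and the median was 0.39, and lineage-filtered monocytes gave 12 of 14 above 0 with a median of 0.35. Of all genes 835 of 1873 and 644 of 1378 were above 0. Over all members 5.77% of genes were past 2-fold higher, so 1 of 17 was near the share of all genes. Gapdh stood at 1405 and 2169 CPM in all members and at a ratio of 0.55 (0.34 to 0.76) in the lineage-filtered set. Pkm was at 0.40 (0.15 to 0.65), Aldoa at 0.38 (0.06 to 0.70) and Ldha at 0.00 (-0.30 to 0.30). Macrophages gave 21 of 22 genes above 0 and a median of 0.47, so the difference was present in both cell types. After subtraction of the estimated free melanoma RNA, which holds glycolytic transcripts, the monocyte median was 0.59.

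ATF4 target genes were too sparse in monocytes for a firm direction. Only 9 of 44 listed targets reached 50 UMIs, 4 were above 0 and 5 below, and the median was -0.29, whereas the sum of the list gave 0.12 (-0.03 to 0.28). Lineage-filtered monocytes gave 2 of 5 genes above 0 and a median of -0.36, and removal of the fibroblast- and endothelial-marked members alone gave 0.08 over 6 genes. In all members the amino acid transporter chains Slc3a2 and Slc7a11 were at -0.48 (-0.91 to -0.06) and -0.34 (-1.04 to 0.35). Ppp1r15a, a phosphatase subunit of stress recovery, was at -1.07 (-1.94 to -0.27) there, and Eif4ebp1, an inhibitor of translation, at 0.65 (0.13 to 1.18). These values include the fibroblast-marked members, which held 9.92% of the UMIs in Atf4 WT/WT and 32.8% in Atf4 Δ/Δ. Asns, asparagine synthetase, was detected at 1000 UMIs in 1.61% (0.334 to 4.64) and 1.09% (0.0275 to 5.91) of monocytes. Macrophages, with 32 measured targets, had a median of 0.38. Endoplasmic reticulum stress genes had a median of -0.11 in lineage-filtered monocytes, with 0 of 12 past 2-fold, and the chaperone Hspa5 was at 0.08 (-0.18 to 0.33).

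Most S100 genes were higher in Atf4 Δ/Δ monocytes. All 7 measured genes were above 0 in all members, with a median of 0.31, and 5 of 6 in lineage-filtered monocytes, and the 2 past 2-fold were S100a8 and S100a9. Of all genes 835 of 1873 and 644 of 1378 were above 0 in these sets. S100a8 was found in 16.3% (9.42 to 25.5) of Atf4 Δ/Δ monocytes at 1000 UMIs, against 0.538% (0.0136 to 2.96) of Atf4 WT/WT monocytes and 1.19% (0.439 to 2.58) of Atf4 Δ/Δ macrophages. In lineage-filtered monocytes S100a8 kept 64 UMIs in Atf4 Δ/Δ against 1 in Atf4 WT/WT, and S100a9 kept 10 against 0. Lcn2, another granule gene, gave 16 against 2, and Ly6g, Ngp and Retnlg were at 0 there in both libraries. Cells with at least 2 neutrophil genes other than S100a8 and S100a9 had been removed, so these low counts follow in part from the filter. Over all Atf4 Δ/Δ members each of the 10 neutrophil genes was seen. The calcium-binding genes S100a4, S100a6, S100a10 and S100a11 were at 0.31, 0.16, 0.46 and 0.33 in lineage-filtered monocytes, each beyond counting error. Neutrophil RNA moved with the calprotectin genes, and its part in them was not tested.

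**Figure D5:**
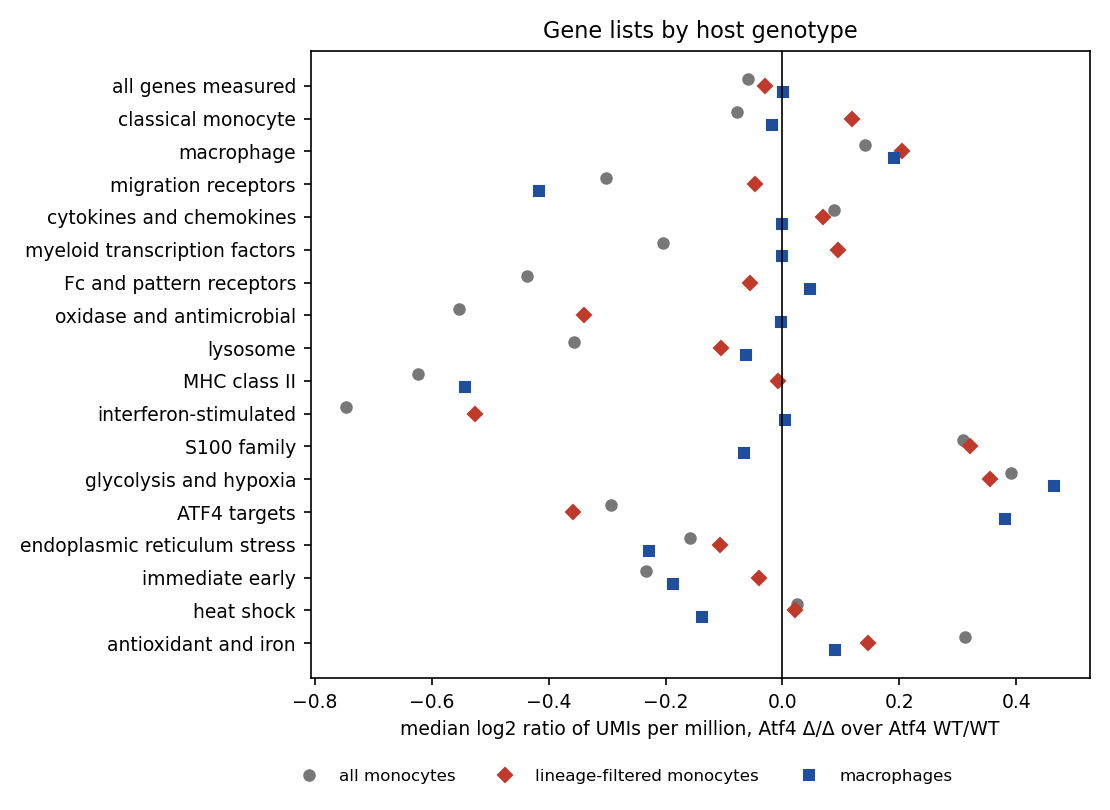
Median log2 ratio of CPM, Atf4 Δ/Δ over Atf4 WT/WT, of each gene list in all monocytes (gray circles), lineage-filtered monocytes (red diamonds) and C1q-positive macrophages (blue squares), 1 library per genotype. The lineage filter brought the MHC class II median from -0.62 to -0.01 and the Fc and pattern receptor median from -0.44 to -0.06, while the interferon-stimulated median stood at -0.53 and the glycolysis and hypoxia median at 0.35.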

How the data were processed

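The deposited matrices held raw counts of UMIs per gene and cell; the submitters' notes name Cell Ranger 3.1.0, Seurat 3.2.1 and GRCm38. The labels and the study's methods give different versions of the droplet kit. From the deposited counts, cells were filtered as in the study's methods and selected by the rule given above. UMIs were summed per library over the members and scaled to the members' total (CPM). Ratios are log2 of Atf4 Δ/Δ over Atf4 WT/WT or of monocytes over macrophages, with counts under 3 set to 3, for genes with at least 50 UMIs. Intervals are exact 95% intervals (Poisson for levels, Clopper-Pearson for shares, conditional binomial for ratios), cover counting error only, and rest on 1 library per genotype, so no test was run. A list is described by its counts and its median beside all genes measured. Genes named by size had at least 100 UMIs and were the 10 with the largest ratio in each direction, rule genes and mitochondrial genes left out; for monocytes against macrophages the smaller ratio of the 2 libraries was used. The rule was applied to all members and to lineage-filtered monocytes, and all listed genes could also be named; some genes that it names are not reported here. For equal depth each cell was thinned to 1000 or 2000 UMIs with a fixed seed. Cells with fewer UMIs were left out. Doublets were called with Scrublet in scanpy 1.11.5 and were not removed. Free melanoma RNA was estimated from the pigment genes. The scripts used Python 3.11.15, numpy 2.4.6, scipy 1.17.1, pandas 2.3.3 and edgeR 4.0.16 (TMM factors only), and the ratio intervals were tested on simulated data. Alternatives were other cell limits and conditions of the rule, thinning, TMM scaling, a lower count minimum, free RNA subtraction, removal of doublets or of members with at least 2 genes of another lineage (S100a8 and S100a9 not counted), and cells with Xist only. The members and gene lists were chosen with earlier results of these data known.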

Additional observations from a re-analysis of the deposited data

Results flagged for a closer look

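Ifi27l2a, an interferon-induced gene, had a log2 ratio of Atf4 Δ/Δ over Atf4 WT/WT of -1.84 (-2.07 to -1.63) in monocytes and of 0.20 in C1q-positive macrophages. The macrophage value is 3117 CPM in Atf4 WT/WT and 3571 in Atf4 Δ/Δ, beside 2626 and 731 in monocytes. The opposite directions drew attention, and the difference between the cell types was not tested, since each genotype had 1 library.

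Fbn1, the microfibril gene fibrillin, had a ratio of 2.51 in monocytes and of -1.36 in macrophages. In monocytes 99.3% of its UMIs lay in fibroblast- or endothelial-marked members, and the lineage-filtered monocytes held 0 and 1 UMI. This difference was not tested either.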

How the results depend on the processing

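Of 172 recomputed values for 10 results, 125 stayed within the limits set for each result, 41 moved further and 6 reversed. The limits were the counting interval for the monocyte share and Atf4, and 1.5 times for counts of genes. List medians by genotype had a band as wide as the counting interval of the summed measured genes. List medians against macrophages had the standard deviation between the 2 libraries on each side. No paired analysis was possible because a genotype was represented by 1 library. The removals of fibroblast- and endothelial-marked members were chosen after seeing the data. Depth limits the results, since the members' median was 1103.5 and 1065.5 UMIs, 9 ATF4 targets were measurable and only 10 and 14 members passed at 2000 UMIs; the causes of the shifts were not tested.

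The log2 ratio of monocyte shares, -0.47 as reported, was -0.85 at 1000 UMIs, -0.99 at 1000 UMIs in lineage-filtered monocytes, 0.40 at 2000 UMIs and 0.022 among Xist-bearing cells without Y-linked RNA. Atf4, at -2.01, moved to -3.01 without fibroblast- and endothelial-marked members and to -3.17 in lineage-filtered monocytes. The ATF4 target median of -0.29 became -0.69 with at least 3 monocyte genes, 0.012 without the Arg1 and interferon conditions, 0.076 without fibroblast- and endothelial-marked members and 0.11 at a minimum of 20 UMIs. The glycolysis and hypoxia median of 0.39 remained above 0 in 18 of 18 alternatives and moved to 0.52 at a 15% mitochondrial limit, 0.51 with no C1q gene, 0.67 at 2000 UMIs, 0.24 with Xist, 0.31 without fibroblast- and endothelial-marked members and 0.59 after subtraction of free melanoma RNA.

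The MHC class II median of -0.62 moved to -0.33 with at least 3 monocyte genes, -0.50 with no C1q gene, -0.16 at 1000 UMIs, -0.44 without members that had 2 dendritic, lymphoid or neutrophil genes (S100a8 and S100a9 not counted), -1.10 with Xist, -0.20 without fibroblast- and endothelial-marked members, -0.0071 in lineage-filtered monocytes and 0.025 when that filter was joined to 1000 UMIs. The 197 genes past 2-fold between the hosts became 32 with at least 3 monocyte genes, 49 at 1000 UMIs, 10 at 2000 UMIs, 89 with Xist, 63 without fibroblast- and endothelial-marked members, 55 in lineage-filtered monocytes, 38 with that filter at 1000 UMIs and 610 at a minimum of 20 UMIs. Of the 20 genes named by size, 9 remained past 2-fold with at least 3 monocyte genes, 7 at 2000 UMIs, 13 with Xist, 11 without fibroblast- and endothelial-marked members and 10 in lineage-filtered monocytes.

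Against macrophages the 709 genes past 2-fold became 299 at 1000 UMIs, 1824 at 2000 UMIs, 318 with Xist and 286 at 1000 UMIs in lineage-filtered monocytes. The classical monocyte median of 1.66 moved to 0.88 at 2000 UMIs, 1.36 with Xist and 1.99 at a minimum of 20 UMIs, and the macrophage median of -2.39 to -1.92 with at least 3 monocyte genes, -1.62 at 2000 UMIs and -1.80 with Xist. The removal of doublets moved none of the 10 results past these limits, and TMM scaling none of the 9 it applies to.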
